A study of Sus scrofa with 30 samples.

Results

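A list of 10 genes of the heat shock response and of stress in the endoplasmic reticulum (ER) was followed in pig liver. The rule that picks them names the genes and uses no measured value, but the list was drawn up with earlier results of these data known. The genes are listed with human protein identifiers because the deposited table names its rows that way. Of these 10 genes, 8 had a row among the 19864 rows of the table: HSPA5 (ENSP00000324173), HSP90B1 (ENSP00000299767), HSPA8 (ENSP00000227378), HSPD1 (ENSP00000340019), DNAJB1 (ENSP00000254322), HSPH1 (ENSP00000318687), DDIT3 (ENSP00000340671) and ASNS (ENSP00000175506). HSP90AA1 (ENSP00000335153) and ATF4 (ENSP00000336790) had no row and were not analysed here.

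Liver RNA of 30 female adolescent pigs was hybridised to 1-colour Agilent arrays, 1 pig per array and 3 pigs in each of 10 groups. Normal birth weight pigs (N) had weighed 1.4 to 1.6 kg at birth and low birth weight pigs (U) 0.8 to 1.1 kg. Groups N_T1 and U_T1 were sampled before feed restriction (T1). Groups NR_T2 and UR_T2 were sampled after 3 weeks on 50% of the feed eaten ad libitum (T2), beside the unrestricted controls NK_T2 and UK_T2. Groups NR_T3 and UR_T3 were sampled after 5 weeks of refeeding (T3), beside the controls NK_T3 and UK_T3. The sample labels give the days as 76, 97 and 103 and the series text as 75, 98 and 131. All pigs were fed freely after weaning up to the restriction, and they had been taken from a litter for their birth weight. The pigs of a group are separate animals, so the p-values below measure the spread between pigs and arrays together. Whole liver was measured, so fewer cells of a type and less RNA per cell cannot be told apart.

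Heat shock proteins are chaperones that hold, fold or disaggregate other proteins. In the cytosol they are induced through heat shock factors when proteins unfold. In the ER, which in hepatocytes makes most plasma proteins, a load of unfolded protein releases HSPA5 from the sensors of the unfolded protein response. The response then raises ER chaperones and, through the transcription factor ATF4, genes such as DDIT3 and ASNS. The ATF4 branch also answers to a shortage of amino acids.

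Rows of the table were traced to the 60-base probes of the array, since the probe is what was measured. Over the 24 arrays of T2 and T3, each member's row equalled the median of 3 neighbouring probes after normalization. For all members but DNAJB1, 2 such sets of 3 matched equally well, so 1 of the 3 probes is not known. For 7 members the row followed a single one of its probes closely, with a correlation over the 30 arrays of 0.992 for DNAJB1 and of 0.998 or more for the others. The 2 probes behind the rows of the ATF4 targets are printed to show what stood behind the values of these transcripts:
DDIT3: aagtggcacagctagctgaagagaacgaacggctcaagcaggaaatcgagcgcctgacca
ASNS: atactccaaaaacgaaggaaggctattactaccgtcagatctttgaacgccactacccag
No pig genome was used here, so genome positions of the probes are not given. The row of HSPA8, the constitutive cytosolic HSP70, was dim: its signal lay between 9.2 and 37.2, the range in which the share of probes marked as well above background passes 50%. Of the 2 probes common to every match of that row, PigEx0024205 was well above background on 19 of 30 arrays and PigEx0024206 on 2. The third probe, either PigEx0024204 (mean log2 signal 6.09) or PigEx0024207 (10.53), was well above background on all 30. The dim row thus does not show that the transcript was scarce. Values of the HSPA8 row carry little weight, and the 7 other rows were bright on all 30 arrays.

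The table had been normalized separately in 4 sets of arrays: the 6 of T1, the 6 of N pigs at T2, the 6 of U pigs at T2 and the 12 of T3, so levels were compared only within a set. Between 53.6% and 74.3% of probes were well above background on an array. NK_T3 replicate 1 stood apart at T3 as the only array of scan 3. Its share was 55.0%, and that of UR_T3 replicate 2 was lower still, at 53.6%. Where a member's averaged difference at T3, or 1 that sets a group against NK_T3, is given, its value without NK_T3 replicate 1 is given too. The 3 columns of N_T1 carried the replicate numbers of other scanner files of the same group, which leaves the group unchanged: replicates 1, 2 and 3 of the table were replicates 2, 3 and 1 of the scanner files. Hepatocyte and other cell type markers were not looked up, because the tables used here pair only the 10 listed identifiers with gene names. The other genes of the pathways are not counted for the same reason.

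**Figure D1:**
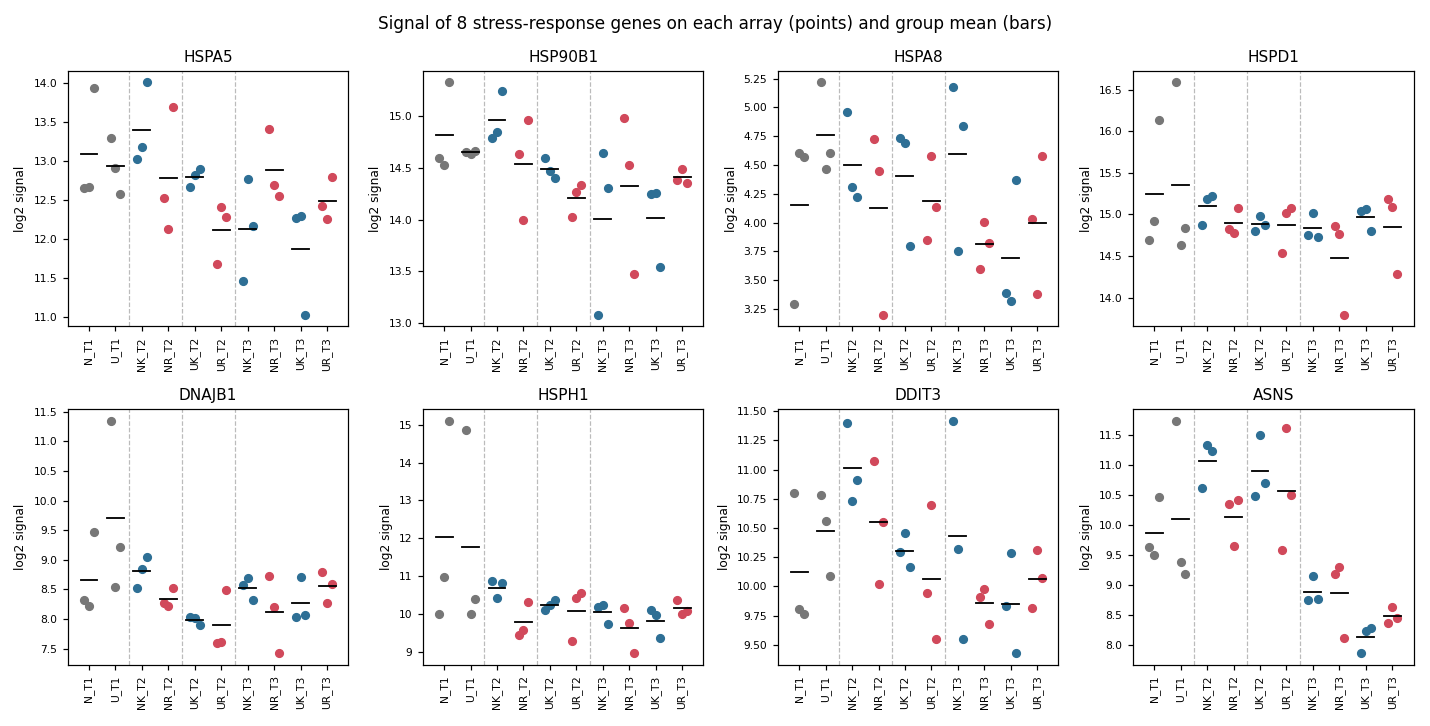
Log2 signal of the 8 genes (vertical axis) in the 10 groups (horizontal axis), with 1 point per array in the order of replicates 1 to 3 and a bar at the mean of 3. Grey marks T1, blue the controls, red the restricted or formerly restricted pigs, and dashed lines separate the 4 normalization sets, between which levels are not comparable; HSPH1 reached 35261 and 29810 on 2 arrays of T1, which are the points near 15 on its panel.

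Before restriction, the most variable of these genes was HSPH1, which encodes the HSP110 that works as a nucleotide exchange factor of HSP70. Its signal was 1029, 2006 and 35261 in N_T1 and 29810, 1037 and 1359.5 in U_T1, in the order of replicates 1 to 3. One pig of each birth weight was thus high, and the other 4 pigs lay close together. Relative to the median of the other 4 arrays, HSPH1 was 29.7-fold higher in N_T1 replicate 3 and 25.1-fold higher in U_T1 replicate 1. The second highest array exceeded the third by 14.9-fold. Of the 19864 rows, those with a signal of at least 64 on any array of T1 were ranked, and this gap was the fourth largest.

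The same 2 pigs were highest in HSPD1, the mitochondrial chaperonin HSP60. HSPD1 was 26454, 30989 and 72135 in N_T1 and 98463, 25421 and 29294 in U_T1. DNAJB1, the J-domain protein that stimulates HSP70, was 319.7, 297 and 709 in N_T1 and 2609.6, 372 and 596 in U_T1. The same pair was highest, U_T1 replicate 1 at 7.57-fold and N_T1 replicate 3 at 2.05-fold the median of the 4 lower arrays. N_T1 replicate 3 was only 1.19-fold above the next array. ASNS, asparagine synthetase, was 799, 726 and 1415 in N_T1 and 3416, 669 and 583 in U_T1, again with these 2 pigs on top.

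The ER chaperones varied less. HSPA5, known as BiP, was 6449, 6508 and 15741 in N_T1 and 10089, 7737.5 and 6148 in U_T1, so the same 2 pigs were highest by a smaller margin. HSP90B1, the ER member of the HSP90 family (GRP94), was 24814, 23707 and 41134 in N_T1 and 25846, 25501 and 25918 in U_T1. Only N_T1 replicate 3 stood out in it, at 1.64-fold the median of the 4 lower arrays. DDIT3, the transcription factor CHOP, was 1787.5, 896.5 and 869 in N_T1 and 1764, 1512 and 1087 in U_T1, and its highest arrays were not the same pair. HSPA8 was 9.8, 24.3 and 23.7 in N_T1 and 37.2, 22.1 and 24.3 in U_T1.

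**Figure D2:**
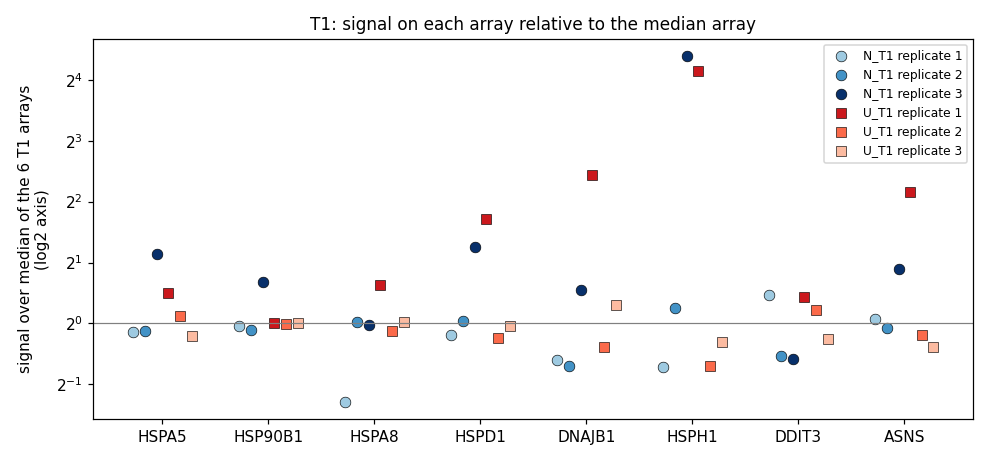
Signal on each of the 6 arrays of T1 divided by the median of the 6 arrays (vertical log2 axis) for the 8 genes (horizontal axis), with circles for normal and squares for low birth weight. N_T1 replicate 3 and U_T1 replicate 1 lie 21.0-fold and 17.7-fold above the median in HSPH1 and 2.39-fold and 3.27-fold in HSPD1.

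These 2 pigs were picked out after their values were seen, and the pattern is described without a test. It was not limited to the listed genes. Gaps were counted in each set over rows with a signal of at least 64 on any of its arrays. At T1, 178 rows had a second highest array at least 2-fold above the third, and in 147 of them the top 2 arrays were this pair. For a gap of at least 4-fold the counts were 33 and 31. In the other sets, gaps of at least 4-fold occurred in 3, 6 and 2 rows, and no pair of arrays headed more than 2 of them. Both arrays belonged to scan 1, as did all arrays of T1, and they lay on different slides. Their shares of probes well above background were 65.5% and 65.1%, against 66.2% to 69.8% on the other 4 arrays. Both carry replicate number 1 in the scanner files. Whether handling of the animal, sampling or hybridisation had a part in the pattern was not tested.

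U pigs were set against N pigs at T1 to see whether the livers already differed before any change of feed. With 1 high pig in each group, HSPH1 differed by -0.26 on the log2 scale (low minus normal; SE 1.88; 95% interval -4.96 to 4.43). Without the high pair the difference was -0.28 with an SE of 0.43. All 8 members overlapped between the groups. In limma with Benjamini-Hochberg adjustment, 0 of 19864 rows were called at an adjusted p of 0.05 (percent called: 0), and 568 had an unadjusted p under 0.05. In a fit with the replicate numbers of the scanner files as a block, which pairs the high pigs, the HSPH1 difference kept its size of -0.26 with an SE of 0.16. That fit called 0 rows as well.

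At the end of restriction, restricted pigs were set against the controls of the same birth weight. All 8 members had a lower mean in restricted pigs in both birth weights, although 0 of them, and 0 of all rows, passed limma's adjusted p of 0.05 (percent called: 0). The count in low birth weight pigs rested on UR_T2 replicate 1. Without this array 4 of 8 members were lower, and HSPH1 (0.25), HSPD1 (0.16), ASNS (0.15) and DNAJB1 (0.07) lay above 0. In normal birth weight pigs 7 or 8 of 8 were lower without any 1 array. Of all rows, 55.5% were below 0 in normal and 49.5% in low birth weight pigs. The median of the 8 members was -0.47 in normal and -0.23 in low birth weight pigs (0.01 without UR_T2 replicate 1), against -0.04 and 0.00 over all rows. Members that share a response are not independent of each other, so these counts describe the list and test nothing.

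The ER chaperones had lower means after restriction in both birth weights. HSPA5 was 8341, 9275 and 16481.5 in NK_T2 and 5927, 4501 and 13288 in NR_T2. Both sets of 3 values spread widely and overlapped, and replicate 3 was high in each. In low birth weight pigs HSPA5 was 6529, 7275 and 7645 in UK_T2 and 3279.7, 5438 and 5001 in UR_T2. Here all restricted pigs lay below all controls. The standard deviation of log2 HSPA5 was 0.53 in NK_T2, 0.81 in NR_T2, 0.12 in UK_T2 and 0.39 in UR_T2. Limma used 1 spread per gene over all groups of a fit, so the SE is the same in both birth weights. The difference was -0.62 (SE 0.39) in normal and -0.68 (SE 0.39) in low birth weight pigs. Averaged over birth weights it was -0.65 (SE 0.28; 95% interval -1.26 to -0.03), a signal at 0.64 of that of controls, with an unadjusted p of 0.0413 and an adjusted p of 0.567 in limma.

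HSP90B1 was 28383, 29532 and 38892 in NK_T2 and 25459.5, 16368 and 32013 in NR_T2, with overlap. It was 24817, 22649 and 21591 in UK_T2 and 16638, 19724 and 20689 in UR_T2, where the groups did not overlap. The averaged difference was -0.35 (SE 0.16; 95% interval -0.72 to 0.01; unadjusted p 0.0563 and adjusted p 0.607 in limma). HSPA5 and HSP90B1 were thus the members lower without overlap in low birth weight pigs, beside 5.13% of all rows.

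Among the cytosolic and mitochondrial chaperones, HSPH1 had the largest difference in normal birth weight pigs. It was 1867.5, 1371 and 1801 in NK_T2 and 695, 767 and 1285 in NR_T2, so that the highest restricted pig lay below the lowest control. The difference of -0.92 (SE 0.33; 95% interval -1.66 to -0.18) had an unadjusted p of 0.0201, under 0.05 like 4.61% of all rows on the lower side, and an adjusted p of 0.635 in limma. In low birth weight pigs HSPH1 was 1109, 1212 and 1330.3 in UK_T2 and 632, 1386 and 1503 in UR_T2. These groups overlapped, and the difference was -0.15 (SE 0.33). The test of the difference between birth weights gave 0.77 (SE 0.47; 95% interval -0.28 to 1.82) with an unadjusted p of 0.133 in limma, so the effects in the 2 birth weights were not shown to differ. The averaged HSPH1 difference was -0.53 (SE 0.24; unadjusted p 0.0471, adjusted p 0.583 in limma) and shrank to -0.33 without UR_T2 replicate 1.

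DNAJB1 was 370.3, 459.9 and 529 in NK_T2 and 309, 299 and 369 in NR_T2, without overlap, though the lowest control was close to the highest restricted pig. In low birth weight pigs it was 263, 258.5 and 238 in UK_T2 and 195, 197 and 361 in UR_T2, with 1 restricted pig above all controls. HSPD1 differed little: its averaged difference was -0.11 (SE 0.12; 95% interval -0.38 to 0.17), which places a fall of more than 0.38 outside the interval. For HSPA8 the averaged difference was -0.30 (SE 0.29) at a signal of 9.2 to 31.2.

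The ATF4 targets had lower means as well. ASNS was 1566, 2588 and 2417 in NK_T2 and 1304, 801 and 1363 in NR_T2, again without overlap. It was 1438, 2901.5 and 1671 in UK_T2 and 771, 3128 and 1441 in UR_T2, where replicate 2 was high in both groups. The difference was -0.93 (SE 0.47) in normal and -0.33 (SE 0.47) in low birth weight pigs, and -0.63 (SE 0.33; 95% interval -1.37 to 0.11) on average. The low birth weight difference ran from -0.86 to 0.15 when single arrays were left out, and it turned to the higher side without UR_T2 replicate 1. DDIT3 was 2696, 1703 and 1931 in NK_T2 and 2156, 1040.4 and 1501 in NR_T2. It was 1259, 1404 and 1149 in UK_T2 and 987, 1658 and 749.8 in UR_T2, with overlap in both birth weights and an averaged difference of -0.35 (SE 0.23). DNAJB1, HSPH1 and ASNS were the members lower without overlap in normal birth weight pigs, beside 7.17% of all rows.

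Over both birth weights, 1674 rows had an unadjusted p under 0.05 in limma, 1044 of them lower in restricted pigs. That is 5.26% of all rows lower, beside HSPA5 and HSPH1 among the 8 members. With slide as a block the HSPA5 difference was -0.87, and with scan as a block it was -0.65. Within scans, which at T2 hold 1 or 2 pigs of each feeding group and birth weight, HSPA5 was lower in restricted pigs in all 4 comparisons, by -0.71 to -0.49. HSP90B1, ASNS and DDIT3 were lower in all 4 as well, by -0.57 to -0.06, by -1.26 to -0.21 and by -0.62 to -0.06. The other members, HSPH1, DNAJB1, HSPD1 and HSPA8, were lower in 3 of 4. Within slides, 3 comparisons were possible, 2 of them with 1 pig on each side. HSPA5, HSP90B1 and DNAJB1 were lower in all 3, whereas ASNS ran from -1.91 to 1.12 and HSPH1 from -1.03 to 0.32, each with 2 of 3 lower. DDIT3, HSPD1 and HSPA8 were lower in 2 of 3 as well. Slide 3 held only restricted pigs at T2. The comparisons within scans and slides split the same arrays as the differences above and are no separate evidence. The share of all rows lower in every such comparison was not computed.

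**Figure D3:**
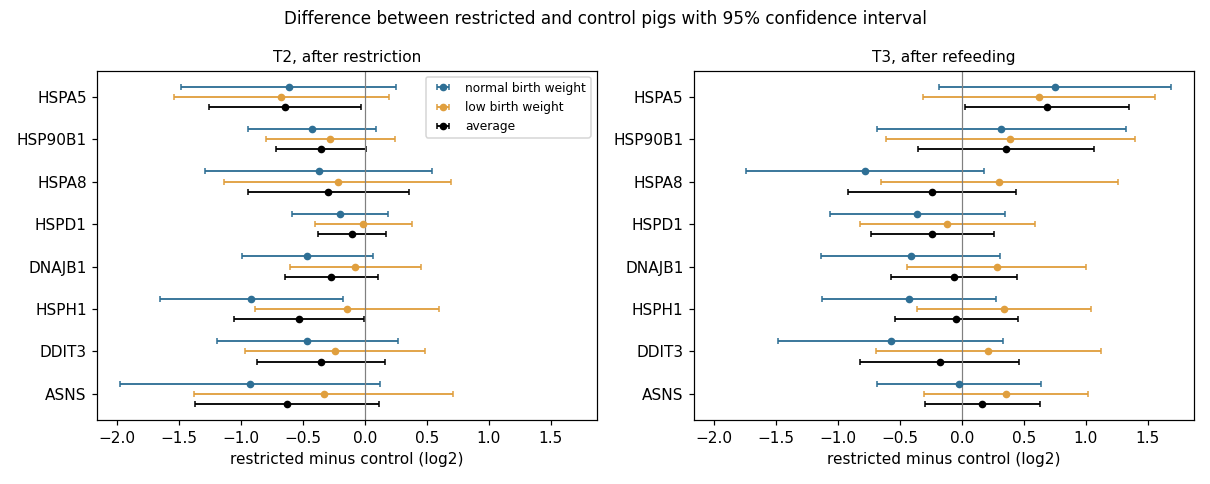
Difference between restricted and control pigs on the log2 scale (horizontal axis) for the 8 genes (vertical axis) at T2 and T3, in normal birth weight pigs (blue), low birth weight pigs (orange) and averaged (black), with 95% confidence intervals from limma. At T2 all points lie below 0, and the averaged intervals of HSPA5 (-1.26 to -0.03) and HSPH1 leave out 0; at T3 the averaged interval of HSPA5 lies above 0 (0.02 to 1.35).

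After refeeding, the members no longer lay on one side. Averaged over birth weights, 5 of 8 were below 0, beside 51.9% of all rows, with a median of -0.05 against -0.01. Without NK_T3 replicate 1, 4 of 8 were below 0, with a median of 0.03. The 2 birth weights lay on opposite sides. In normal birth weight pigs 6 of 8 members were below 0, with a median of -0.38 against -0.07 over all rows, of which 58.4% were below 0. In low birth weight pigs 7 of 8 were above 0, with a median of 0.32 against 0.02 over all rows, of which 47.1% were below 0. The test of the difference between birth weights gave 0 members with an unadjusted p under 0.05 in limma. The median in normal birth weight pigs was -0.25 without NK_T3 replicate 1 and -0.04 without NR_T3 replicate 3. Limma called 0 rows in any comparison at T3 (percent called: 0), and 525 had an unadjusted p under 0.05 for the averaged difference.

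HSPA5 was higher on average in refed pigs than in their controls. It was 2825, 6992 and 4603 in NK_T3 and 10889, 6611 and 6009.7 in NR_T3. It was 4961, 5060.1 and 2099 in UK_T3 and 5483, 4920.2 and 7126 in UR_T3. The groups overlapped in both birth weights, and 1 control in each, NK_T3 replicate 1 and UK_T3 replicate 3, was the lowest of its group. The averaged difference was 0.69 (SE 0.30; 95% interval 0.02 to 1.35), with an unadjusted p of 0.0436 and an adjusted p of 0.997 in limma. An unadjusted p under 0.05 on the higher side was reached by 0.962% of all rows. It was 0.52 without NK_T3 replicate 1 and 0.48 without UK_T3 replicate 3. Array weights reduced it to 0.38, and scan as a block gave 0.48. Within scan 2 the difference was 0.28 in normal and 0.05 in low birth weight pigs, and within scan 4, with 1 pig of each kind, it was 0.38 and 1.76. Within slide 4 it was -0.04 in low birth weight pigs, also with 1 pig on each side. Slide 6 held the arrays of scan 4 and gave the same values.

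HSP90B1 was 8656, 25541 and 20258 in NK_T3 and 32349, 23679 and 11354 in NR_T3, so that each group held 1 low pig. In low birth weight pigs it was 19399, 19625 and 11949 in UK_T3 and 21319, 23029.5 and 20970.5 in UR_T3, where all refed pigs lay above all controls. The averaged difference of 0.36 had an SE of 0.32, and it was 0.12 without NK_T3 replicate 1. ASNS was 234, 302 and 311 in UK_T3 and 332, 396 and 349.5 in UR_T3, also without overlap, with a difference of 0.35 (SE 0.30). HSP90B1 and ASNS were the members higher without overlap in low birth weight pigs, beside 3.55% of all rows. In normal birth weight pigs ASNS was 433, 568 and 435 in NK_T3 and 585, 629.6 and 278 in NR_T3, with a difference of -0.02 (SE 0.30), or -0.09 without NK_T3 replicate 1. The averaged ASNS difference was 0.17, and 0.13 without that array.

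The cytosolic and mitochondrial chaperones and DDIT3 overlapped between refed and control pigs in both birth weights. HSPH1 was 1175, 1212 and 854 in NK_T3, 1141, 868 and 504.5 in NR_T3, 1099, 1015 and 657 in UK_T3 and 1334, 1021 and 1095 in UR_T3. Replicate 3 was lowest in each group but UR_T3, and the 4 arrays of replicate 3 were those of slide 6 and scan 4. HSPD1 ran from 27112 to 33202 in NK_T3, from 14222 to 29829.8 in NR_T3, from 28513 to 34169 in UK_T3 and from 19929 to 37283 in UR_T3. The lowest HSPD1 value of each group was that of replicate 3. DNAJB1 ran from 321.5 to 412 in NK_T3, from 172 to 425.5 in NR_T3, from 262 to 419.6 in UK_T3 and from 310.1 to 444 in UR_T3. DDIT3 was 2738 in NK_T3 replicate 1 and between 690.4 and 1279 on the other 11 arrays of T3. The averaged differences were -0.04 (SE 0.22) for HSPH1, -0.24 (SE 0.22) for HSPD1, -0.06 (SE 0.23) for DNAJB1 and -0.18 (SE 0.29) for DDIT3. Without NK_T3 replicate 1 they were -0.01, -0.26 and -0.05 for the first 3, and 0.07 (SE 0.21) for DDIT3, on the other side of 0.

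The dim row of HSPA8 was 36.2, 13.5 and 28.7 in NK_T3 and 12.1, 16.1 and 14.2 in NR_T3. It ran from 10.0 to 20.7 in UK_T3 and was 16.4, 10.4 and 23.9 in UR_T3. The groups overlapped in both birth weights. The difference between refed and control pigs was -0.78 (SE 0.43) in normal and 0.30 (SE 0.43) in low birth weight pigs. Low minus normal birth weight controls differed by -0.90 (SE 0.43). NK_T3 replicate 1 was the highest array, and without it the first and the last of these were -0.49 and -0.60.

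Whether the difference by feeding changed from T2 to T3 was tested directly over the 24 arrays. For HSPA5 the change was 1.33 (SE 0.42; 95% interval 0.45 to 2.22), from -0.65 at T2 to 0.69 at T3, with an unadjusted p of 0.00531 and an adjusted p of 0.9997 in limma. Over all alternatives it lay between 1.10 and 1.56. Scan as a block gave 1.13, slide as a block 1.48, and the fit without NK_T3 replicate 1 gave 1.16. HSP90B1 changed by 0.71 (SE 0.37) and ASNS by 0.80 (SE 0.41), each with an interval that included 0, or by 0.48 and 0.76 without NK_T3 replicate 1. In all, 7 of 8 members had a change above 0, and 1 of 8, HSPA5, had an unadjusted p under 0.05, beside 2.04% of all rows with such a p and a change above 0. These changes use the T2 and T3 differences given above and are no separate evidence.

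Low and normal birth weight pigs were compared at T3 within each feeding group. ASNS was lower in UK_T3, at 234 to 311, than in NK_T3, at 433 to 568, without overlap, as were 5.18% of all rows. The difference of -0.76 (SE 0.30; 95% interval -1.42 to -0.10) had an unadjusted p of 0.0278, under 0.05 like 2.26% of all rows on the lower side, and an adjusted p of 1 in limma. It was -0.83 without NK_T3 replicate 1. Among formerly restricted pigs the ASNS difference was -0.39 (SE 0.30), with an unadjusted p of 0.224 in limma. It ran from -0.76 to -0.17 when single arrays were left out, with unadjusted p-values from 0.00573 to 0.601 in limma. The -0.76, with the lowest p (adjusted p 0.9998), was reached only without NR_T3 replicate 3, the lowest pig of its group. At T2 the 2 birth weights lay in different normalization sets and were not compared.

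Variation between arrays of the same group, with 1 pig on each, was shared among most of the chaperones. Deviations from group means were correlated over the 24 arrays of T2 and T3 for the 21 pairs of the 7 bright members, with permutations within groups. T1 was left out because of its 2 high pigs. The closest pair was HSPA5 and HSP90B1, the ER chaperones, with a Pearson's r of 0.79 (Spearman's rho 0.83; permutation p 0.00018 and 0.0004; Benjamini-Hochberg adjusted p 0.00378 and 0.0084). Their r was 0.88 at T2, 0.81 at T3, 0.59 and 0.84 within scans 1 and 2, 0.76 with slide removed and 0.78 without the 2 farthest arrays. HSPD1 correlated with HSP90B1 at an r of 0.63, with HSPH1 at 0.68 and with ASNS at 0.61, and HSPH1 with HSPA5 at 0.66. These 5 pairs had an adjusted p under 0.05 by both measures. The permutations did not keep arrays within their slide or scan, and the share of such pairs among all rows was not computed. Covariation of these genes was thus not separated from covariation of whole arrays. With slide removed, the r of HSPD1 with HSPH1 fell to 0.35, while that of HSPD1 with ASNS was 0.76.

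Over the 24 arrays DDIT3 had the lowest correlations. Its r with the other 6 members lay between -0.12 and 0.30, below all 15 pairs without it, and its lowest adjusted p was 0.323 for r and 0.217 for rho. The correlation of DDIT3 with ASNS, the other ATF4 target, was 0.30 (Spearman's rho 0.35; permutation p 0.231 and 0.15). It was 0.47 at T2, 0.13 at T3, 0.71 and 0.51 within scans 1 and 2, 0.35 with slide removed and 0.42 without the 2 farthest arrays, of which NK_T3 replicate 1 was one. The order holds for r over all 24 arrays only. Without the 2 farthest arrays of each pair, 4 of the 15 pairs without DDIT3 lay below its highest r, and within scan 1, with 6 arrays, 12 did. All values of an array share its labelling, hybridisation and normalization, which can move genes together.

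**Figure D4:**
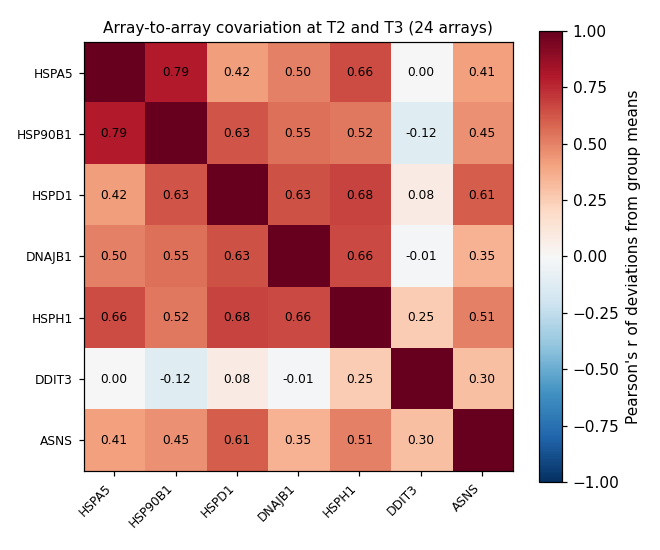
Pearson's r of deviations from group means between the 7 bright members over the 24 arrays of T2 and T3, with colour from -1 (blue) to 1 (red). The ER chaperones HSPA5 and HSP90B1 share an r of 0.79, and the row of DDIT3 holds values between -0.12 and 0.30.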

How the data were processed

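The authors' deposited table holds background-corrected intensity on a linear scale in 19864 rows named by human protein identifiers, with the steps not given in the sources used here. Rows were matched to the scanner files (processed signal, an intensity, from Feature Extraction 10.5.1.1 of Agilent per the file headers). The match used the 24 arrays of T2 and T3, with probes quantile normalized in each of 4 sets of arrays. Of all rows, 95.78% equalled the median of 3 neighbouring probes within 0.05 (root mean square, log2). The T1 arrays did not enter this percentage. Over the brighter matched rows, T1 columns differed from their arrays by up to 0.0436. Sorted columns differed by at most 0.0915 within sets and at least 0.0991 between them. No spot was saturated.

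Log2 values were fitted with limma 3.58.1 (R 4.3.3; lmFit, contrasts.fit, eBayes) per time point, with a mean per group, over all rows in 12 comparisons. T2 and T3 together were fitted for the change between them. Two-sided p-values were adjusted over all rows (Benjamini-Hochberg), and rows under an adjusted p of 0.05 were called. Simulated arrays were used to check that the fit returned known shifts. Their values were drawn independently, so effects of a shared slide or scan were not covered. Precision is limited by 3 arrays per group. Correlations used Python 3.11.15 with 100000 permutations.

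Same-numbered pigs were checked by correlating deviations from group means across rows. All correlations exceeded 0.1 for N with U at T1 (0.247 to 0.355, scanner file numbers), for NK with NR and for UK with UR at T3, but not for these at T2. At T2, however, each NK or UK pig correlated best with the restricted pig of its own number, and at T3 this did not hold for every pig. The T3 correlations were highest for replicate 3 (0.517 for NK with NR, 0.518 for UK with UR), whose arrays shared slide 6 and scan 4. No label says that numbers mark a litter. A block changed no call.

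Alternatives were a fit of all 30 arrays, blocks (replicate, slide, scan), quantile normalization over the fit, a filter on the dimmest 25% of rows, an intensity trend, array weights, scanner probes (75th percentile, or normexp with offset 50) and leaving out each array. The members and lists were chosen with earlier results of these data known. All members are named; no rows could be named for the lists of pathway genes, of cell type markers or of genes most like a member.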

Additional observations from a re-analysis of the deposited data

How the results depend on the processing

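All 12 comparisons gave 0 calls. With the replicate number as a block, 0 rows were called in each of them, including T1 with the scanner file numbers, which were added after seeing the data. Same-numbered pigs correlated under 0.1 in some pairs at T2, although each control there correlated best with the restricted pig of its own number. At T3 some correlated better with another number. Whether equal numbers pair the pigs was thus not settled at either time, and the block is given as an alternative only. Counts moved from 0 in few settings. A fit of all 30 arrays called 2 rows for NR minus NK at T2 and 1 for UK minus NK at T3, array weights called 1 for NR minus NK at T3, and an intensity trend called 1 for averaged restriction at T2, as did single scanner probes under both normalizations. The median of 3 scanner probes called 1 for the difference between birth weights at T2. Leaving out single arrays gave 0 to 3 calls for NR minus NK at T2, and 0 to 1 for UK minus NK, UR minus UK and the difference between birth weights at T3, for the difference between birth weights at T2 and for the averaged restriction difference at T3 minus that at T2. The cause was not tested. None of these calls was a member: of 1952 member values under alternatives, 0 had an adjusted p under 0.05. The scan block could not be fitted at T1, where all arrays were of scan 1.

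The 6 member differences with an unadjusted p under 0.05 kept their direction in every alternative. They were picked for that p in the same arrays, and several alternatives leave the group means unchanged, so this is no separate support. The highest unadjusted p in limma over the alternatives was 0.101 and 0.157 for averaged HSPA5 at T2 and T3. It was 0.357 and 0.448 for HSPH1 (NR minus NK and averaged, T2) and 0.158 for ASNS. For the HSPA5 change from T2 to T3 it was 0.0121. Averaged HSPA5 ran from -0.87 to -0.48 at T2 and from 0.38 to 0.85 at T3, HSPH1 from -1.19 to -0.75 (NR minus NK) and from -0.67 to -0.33 (averaged) at T2, and ASNS from -0.99 to -0.61 (UK minus NK, T3). Without the 2 high pigs of T1, also added after seeing the data, 0 rows were called. With 3 pigs per group, intervals of the members are wide, most of all that of HSPH1 at T1. Adjusted p-values near 1 thus do not show equal levels.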
